A study of Mus musculus with 6 samples.

Results

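The Bcl2 family decides at the mitochondrion whether a cell lives or dies. A set of 10 of its genes, out of 24341 in the deposited expression table, was followed in alveolar macrophages (AMs), the resident phagocytes of the lung's air spaces. The genes were chosen by name, with earlier results of these data known. They were matched by gene identifier, a rule that used no measured value. The survival genes were Mcl1, Bcl2a1b, Bcl2a1d, Bcl2l1 (Bcl-xL) and Bcl2. The effectors were Bax and Bak1, and the BH3-only genes were Bid, Bcl2l11 (Bim) and Bbc3 (Puma). AMs came from bronchoalveolar lavage (BAL), done with PBS and EDTA and followed by lysis of red cells, of female C57BL/6 mice aged 6 to 10 weeks. The comparison was between 3 samples of CD44+/+ AMs and 3 samples of CD44-/- AMs from mice that lacked CD44, the receptor for hyaluronan, in every tissue. No sample received a treatment, and RNA was sequenced from resting cells. Each sample was a pool of mice, so the errors given here are between pools.

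Survival members of the family bind and hold Bax, Bak1 and the BH3-only proteins. When BH3-only proteins outweigh them, Bax and Bak1 open the outer mitochondrial membrane, cytochrome c leaves it, and caspases take the cell apart. AMs are long-lived cells that renew themselves in the lung, and their survival depends on growth factors, chiefly GM-CSF. The amount and the activity of these proteins are set in part after the RNA is made, which RNA levels do not show. Mcl1 is degraded, and Bid, Bim and Bax are cleaved or bound.

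No member passed the test of a difference between the genotypes. The AMs of both genotypes held the same order of mean transcript levels, with Mcl1 and Bcl2a1b at the top and Bcl2 close to 0. The largest difference of a member was that of Mcl1, whose mean was 1.21-fold higher in CD44-/- AMs with a 95% interval of 0.981 to 1.50. For 8 of the 9 members tested, the 95% interval of the difference lay within 1.5-fold in either direction, and for 6 of them within 1.25-fold.

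Mouse Bcl2a1 is a set of near-identical gene copies, and the reads of 1 copy can be counted for another. The starts of the coding sequences of the 2 members and of another expressed copy, Bcl2a1a, are shown because their likeness limits what can be said of each gene alone. Each is the first 120 of 516 coding bases, 5′ to 3′ on the coding strand, from the GENCODE annotation on GRCm38 (mm10). Capitals in Bcl2a1b mark bases that differ from at least 1 of the other copies, and capitals in Bcl2a1d and Bcl2a1a mark bases that differ from Bcl2a1b.
Bcl2a1b, chr9:89199360-89199479, plus strand: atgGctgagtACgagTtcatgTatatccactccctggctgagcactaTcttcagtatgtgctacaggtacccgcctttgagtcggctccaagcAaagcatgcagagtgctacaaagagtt
Bcl2a1d, chr9:88731600-88731719, minus strand: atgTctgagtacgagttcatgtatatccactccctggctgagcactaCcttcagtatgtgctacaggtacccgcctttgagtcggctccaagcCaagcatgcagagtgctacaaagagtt
Bcl2a1a, chr9:88957051-88957170, plus strand: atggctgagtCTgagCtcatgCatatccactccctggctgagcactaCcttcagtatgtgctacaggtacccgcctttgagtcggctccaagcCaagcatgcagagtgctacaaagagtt

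Over the whole coding sequence Bcl2a1b and Bcl2a1d differed at 6 bases (98.8% identical), Bcl2a1a and Bcl2a1d at 7 and Bcl2a1a and Bcl2a1b at 11. To see how far a read can tell the genes apart, each annotated exon sequence was read in windows of 42 bases, the length of 1 read. Of these windows, 82.7% in Bcl2a1b and 83.6% in Bcl2a1d also stood in another annotated gene. The other copies of Bcl2a1 accounted for 62.9% of the windows of Bcl2a1b, and Gm29094, a gene annotated over the same bases, shared windows with it as well. Bax shared 9.54% of its windows, mostly with the overlapping gene Gm45808, and the other members shared under 0.2% or none. The values of Bcl2a1b and Bcl2a1d are therefore uncertain as single genes, and their sum is given beside them.

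**Figure D1:**
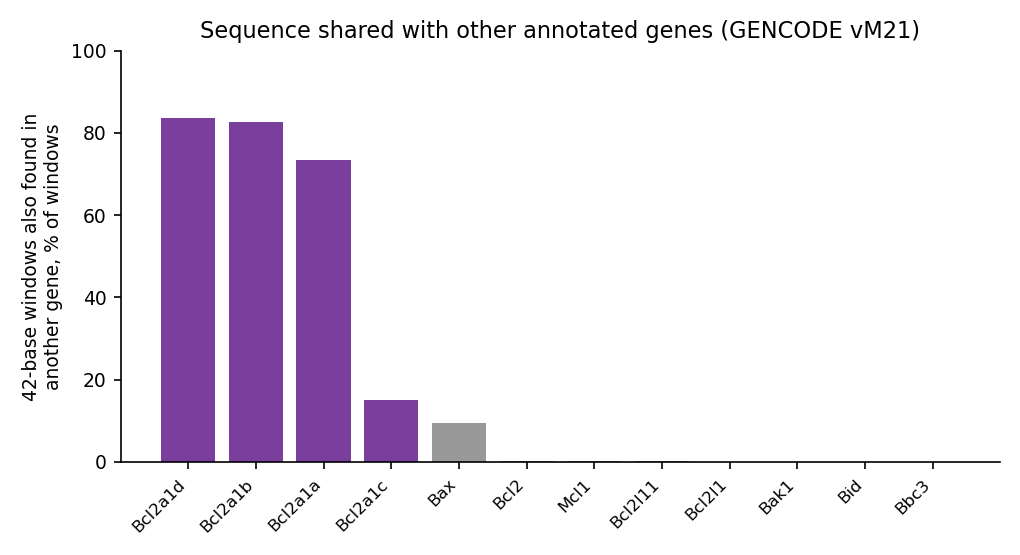
Share of windows of 42 bases in each gene's annotated exons that also occur in another annotated gene (vertical axis, percent), with the Bcl2a1 copies in purple and the other members in grey. Bcl2a1b and Bcl2a1d stand at 82.7% and 83.6%, while every other member is below 10%.

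Levels are given as FPKM, fragment counts scaled to the depth of the library and the length of the transcript, so that genes can be set side by side. The depth of the libraries is not given by FPKM, and no counting interval could be made for a single value. Relative to CD44+/+ replicate 1, the steps between low values placed the depth of the samples between 0.812 and 1.05. Differences are on the log2(FPKM + 0.1) scale, CD44-/- minus CD44+/+, from limma with Benjamini-Hochberg adjustment over the 10800 genes whose mean reached 0.5 FPKM. In bulk RNA, fewer cells of a type and less RNA per cell cannot be told apart. Cd44 itself was at 527 to 540 FPKM in the CD44+/+ samples and at 51.4 to 54.7 FPKM in the CD44-/- samples, 10.0% of the CD44+/+ mean (adjusted p = 4.19e-09). Each sample matched its label in this respect.

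The 12 AM markers, among them Siglecf, Marco, Fabp4 and Pparg, were all present, with sums of 17248 to 19998 FPKM in CD44+/+ and 16773 to 21007 FPKM in CD44-/- AMs. Most of each sum came from Chil3 (10300 to 14200 FPKM). Krt79 (265 to 314 and 203 to 225 FPKM), Mrc1 (524 to 535 and 493 to 510) and Itgax (435 to 460 and 466 to 495) did not overlap between the genotypes. The other AM markers did. Of all genes tested, 11.6% did not overlap. Of other cell types, 9 neutrophil markers summed to 87.4 to 187 and 93.7 to 110.4 FPKM with Camp and Ngp at 0 throughout, and the 3 eosinophil markers to 6.86 to 13.8 and 12.2 to 18.9 FPKM with Prg2 and Epx at 0. The 4 monocyte markers summed to 4.79 to 5.63 and 4.71 to 6.17 FPKM and the 5 dendritic cell markers to 2.31 to 5.58 and 3.598 to 8.57 FPKM. The 10 lymphocyte markers summed to 278 to 313 and 295 to 317 FPKM, nearly all of it from Cd2, and 8 of them stayed under 0.5 FPKM in every sample. Sums were also taken of 5 erythroid genes (14.7 to 124 and 17.5 to 336 FPKM), 4 alveolar type 2 genes (9.30 to 19.6 and 16.3 to 86.3 FPKM) and 4 airway secretory genes (540.3 to 869 and 426 to 690.2 FPKM). None of the lists held a gene called between the genotypes, and their part in the values of the family was not tested.

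Taken as single genes, Mcl1 had the highest mean level of the survival members, while the Bcl2a1 copies summed were above Mcl1 in 6 of 6 samples. Mcl1 (chr3:95658788-95663176, plus strand) encodes a short-lived protein that holds Bak1 and Bim. It was at 292, 202 and 218 FPKM in CD44+/+ replicates 1, 2 and 3, and at 313, 251 and 293 FPKM in CD44-/- replicates 1, 2 and 3. CD44+/+ replicate 1 stood well above the other CD44+/+ samples, so that the groups overlapped although 2 of the 3 CD44-/- samples lay above every CD44+/+ sample. The means were 237 ± 48.0 and 286 ± 31.6 FPKM (SD, n = 3 each). The difference was 0.28 ± 0.13 (SE) on the log2 scale, with a 95% interval of -0.03 to 0.59 (adjusted p = 0.695). Each CD44-/- sample lay above the CD44+/+ sample of the same number. With the replicate number as a block, a pairing that no label gives, the 95% interval was 0.12 to 0.44 and the adjusted p 0.280. Without CD44+/+ replicate 1 the difference was 0.44 and the adjusted p 0.139, the lowest that any setting gave for Mcl1.

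**Figure D2:**
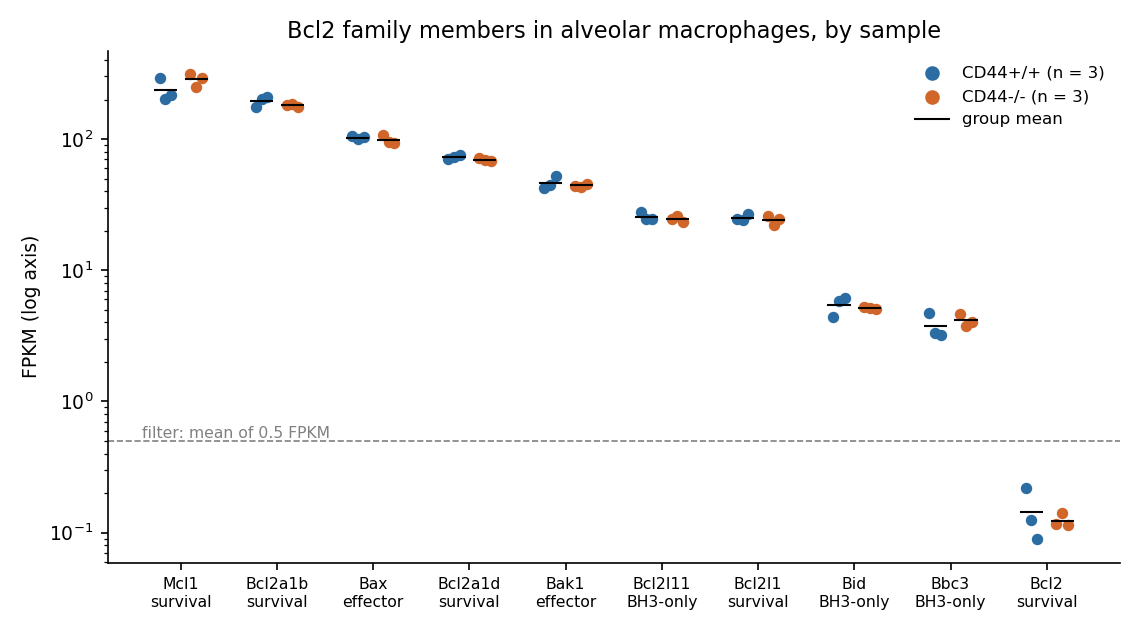
FPKM on a log axis of the 10 members in each sample, CD44+/+ and CD44-/-, with points for samples, short lines for the mean of 3 samples and a dashed line at the limit of 0.5 FPKM. The points of the genotypes overlap for every gene, with Mcl1 at 202 to 313 FPKM and Bcl2 at 0.0888 to 0.221 FPKM.

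Bcl2a1b (chr9:89199209-89207827, plus strand) and Bcl2a1d (chr9:88723285-88731914, minus strand) encode A1, a survival protein of blood cells with a short half-life. Bcl2a1b was at 174, 202 and 209 FPKM in the CD44+/+ samples and at 181, 185 and 175 FPKM in the CD44-/- samples. All CD44-/- samples lay between the lowest and the highest CD44+/+ sample. The means were 195 ± 18.5 and 180.3 ± 5.03 FPKM, and the log2 difference was -0.11 (95% interval -0.27 to 0.05, adjusted p = 0.841). Bcl2a1d was at 70.9, 72.4 and 76.1 FPKM in CD44+/+ AMs and at 71.2, 69.5 and 68.0 FPKM in CD44-/- AMs. Here 2 CD44-/- samples were below every CD44+/+ sample and 1 was within their range. The log2 difference was -0.07 (95% interval -0.18 to 0.04, adjusted p = 0.854), and the SD within groups, 0.04 on the log2 scale, was the lowest of the members. Because these copies share reads, all Bcl2a1 genes of the table were also summed. The sum was 331, 360.4 and 379 FPKM in CD44+/+ and 340.2, 334 and 320.2 FPKM in CD44-/- AMs, again with overlap. Its log2 difference was -0.10 (95% interval -0.24 to 0.03, adjusted p = 0.792), the same sign as for Bcl2a1a, Bcl2a1b and Bcl2a1d alone, while Bcl2a1c, under 1 FPKM in every sample, had the opposite sign.

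Bcl2l1 (chr2:152780668-152831728, minus strand) encodes Bcl-xL, a stable survival protein, and its short isoform Bcl-xS, which gene-level FPKM do not separate. It was at 24.5, 24.3 and 26.9 FPKM in CD44+/+ AMs and at 25.8, 22.1 and 24.5 FPKM in CD44-/- AMs. Samples of both genotypes were interleaved, and the log2 difference was -0.06 (95% interval -0.23 to 0.10, adjusted p = 0.954). Bcl2 (chr1:106538178-106714274, minus strand), the founding gene of the family, was nearly silent in these cells. Its values were 0.221, 0.125 and 0.0888 FPKM in CD44+/+ AMs and 0.116, 0.141 and 0.114 FPKM in CD44-/- AMs. All CD44-/- samples were within the CD44+/+ range. Bcl2 was below the limit of 0.5 FPKM and was tested only when that limit was dropped, with a log2 difference of -0.10 and a 95% interval of -0.63 to 0.43 (adjusted p = 0.950).

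Bax and Bak1 encode the proteins that form the pore in the outer membrane. Bax (chr7:45461697-45466898, minus strand) was at 105, 99.7 and 103 FPKM in CD44+/+ AMs and at 107, 94.6 and 93.7 FPKM in CD44-/- AMs. Of the CD44-/- samples, 2 lay below every CD44+/+ sample and 1 above every CD44+/+ sample. The means were 103 ± 2.68 and 98.4 ± 7.43 FPKM and the log2 difference was -0.06 (95% interval -0.20 to 0.08, adjusted p = 0.935). Bak1 (chr17:27019810-27029009, minus strand) was at 42.2, 44.5 and 52.3 FPKM in CD44+/+ AMs and at 43.9, 43.4 and 45.7 FPKM in CD44-/- AMs. CD44+/+ replicate 3 was the highest sample, and all CD44-/- samples lay within the CD44+/+ range. The log2 difference was -0.06 (95% interval -0.24 to 0.12, adjusted p = 0.966). Bax exceeded Bak1 by 1.97 to 2.49 times in every sample.

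The BH3-only genes encode the sensors that start the process. Bcl2l11 (chr2:128126038-128162547, plus strand) encodes Bim, which rises in many cells when growth factor is withdrawn. It was at 27.8, 24.4 and 24.5 FPKM in CD44+/+ AMs and at 24.8, 25.97 and 23.5 FPKM in CD44-/- AMs. The highest sample was CD44+/+ replicate 1 and the lowest CD44-/- replicate 3, with the others mixed. The log2 difference was -0.05 (95% interval -0.21 to 0.12, adjusted p = 0.968).

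Bid (chr6:120891930-120916853, minus strand) encodes the protein that caspase-8 cleaves to join death receptors to the mitochondrion. It was at 4.44, 5.80 and 6.17 FPKM in CD44+/+ AMs and at 5.25, 5.13 and 5.06 FPKM in CD44-/- AMs. The 3 CD44-/- samples lay close together inside the wider CD44+/+ range, with SDs of 0.0961 and 0.911 FPKM. The log2 difference was -0.07 (95% interval -0.36 to 0.21, adjusted p = 0.971). Bbc3 (chr7:16308393-16318205, plus strand) encodes Puma, a target of p53. It was at 4.70, 3.33 and 3.22 FPKM in CD44+/+ AMs and at 4.62, 3.79 and 4.05 FPKM in CD44-/- AMs. Replicate 1 was the highest sample in both genotypes. The log2 difference was 0.16 (95% interval -0.19 to 0.51, adjusted p = 0.931), and 0.063 to 0.33 when 1 sample was left out, highest without CD44+/+ replicate 1.

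By limma, 0 of the 9 members tested passed an adjusted p of 0.05, against 12 of all 10800 genes tested (0.111%), 8 of them higher (0.0741%) and 4 lower (0.037%) in CD44-/- AMs. Without adjustment, 0 members and 831 genes (7.69%) had a p under 0.05. Members without overlap between the genotypes also numbered 0, against 11.6% of all genes tested. An exact two-sided permutation test of each of the 10 members gave p-values of 0.2 to 0.8, where 3 samples against 3 cannot go below 0.1. At a share of calls this low among all genes, 0 of 9 is not a result particular to the family. The paper's own Cuffdiff comparison called more genes than limma did here, and the methods were not compared.

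**Figure D3:**
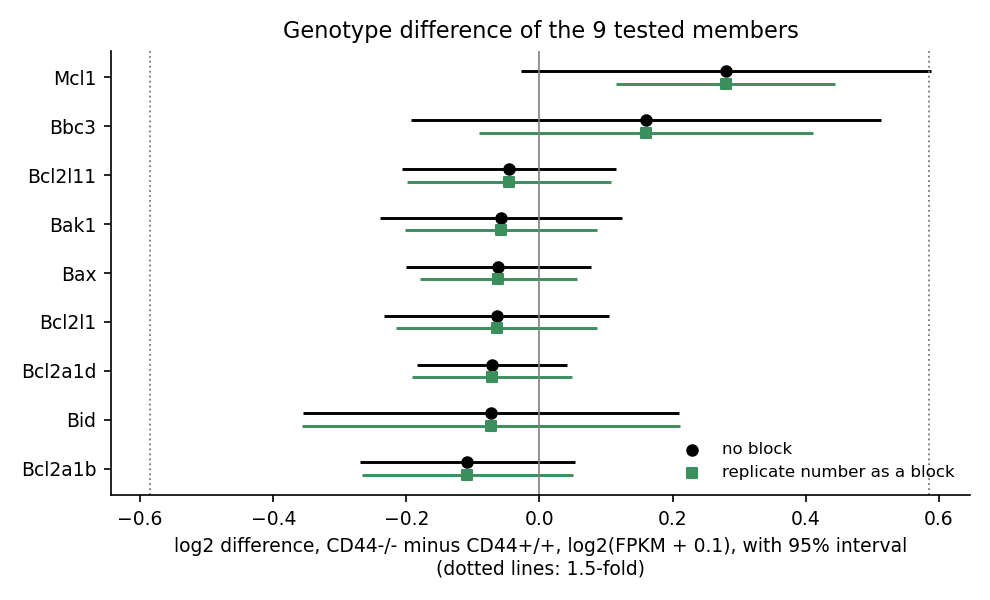
Log2 difference of FPKM, CD44-/- minus CD44+/+, for the 9 members tested, with 95% intervals from limma without (black) and with (green) the replicate number as a block, and dotted lines at 1.5-fold. Every black interval includes 0, and of the green ones that of Mcl1 (0.12 to 0.44) does not.

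The median difference of the 9 members was -0.06, with a range of -0.11 to 0.28, beside a median of 0.01 over all genes tested. Members lower in CD44-/- AMs numbered 7 of 9 (3 of 4 survival genes and 4 of 5 death genes), where 44.2% of all genes were lower. In size, the median difference was 0.07 for the members and 0.07 for all genes, and the median SD within groups was 0.10 and 0.11.

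In level, Mcl1 stood among the top 2.64% of genes tested and Bcl2a1b among the top 3.81%. Mcl1 was above Bcl2a1b in 5 of 6 samples and equal to it in CD44+/+ replicate 2, so these neighbours did not separate. Below them followed Bax, Bcl2a1d and Bak1, each above the next in 6 of 6 samples without overlap. Bcl2l11 and Bcl2l1 were at the same level, each the higher in 3 of 6 samples. Bid and Bbc3 came next, with Bid higher in 5 of 6 samples and ranges that overlapped. Bbc3 was in turn 21.3 to 39.9 times the level of Bcl2.

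Summed FPKM of the 5 survival genes were 562, 501 and 530.1 in CD44+/+ AMs and 591, 528 and 561 in CD44-/- AMs, and those of the 5 death genes were 184, 178 and 189 and 186, 173 and 172. Both sums overlapped between the genotypes, although in 3 of 3 pairs of the same replicate number the survival sum was higher in the CD44-/- sample. Survival over death transcripts gave 3.05, 2.82 and 2.80 in CD44+/+ and 3.19, 3.05 and 3.26 in CD44-/- AMs. These ratios met without crossing, since the highest CD44+/+ and the lowest CD44-/- sample both rounded to 3.05. The ratio is a description of RNA and was given no test. It leaves out Bcl2a1a (76.2 to 93.9 FPKM), which shares reads with the counted copies, so it depends on which copies are counted. Mcl1 supplied 40.3% to 52.9% of the survival sum, the Bcl2a1 members 42.7% to 54.8%, Bcl2l1 4.19% to 5.08% and Bcl2 under 0.04%. Mcl1 was 8.29 to 12.6 times the level of its partner Bcl2l11.

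**Figure D4:**
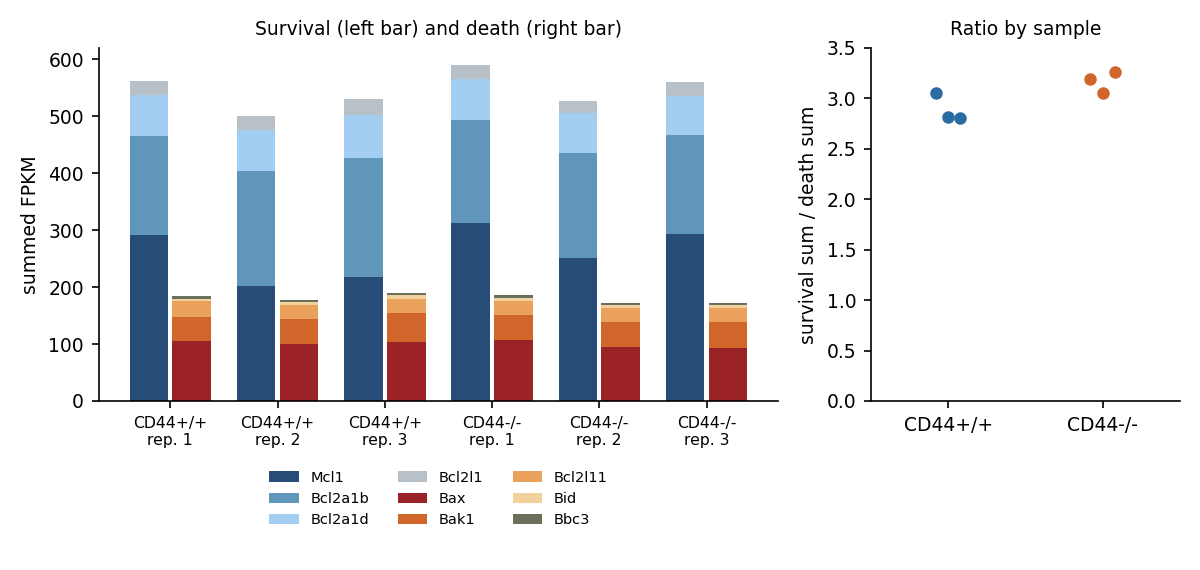
Left, stacked FPKM of the survival and of the death genes in each of the 6 samples, and right, the ratio of the sums as a point for each sample. Mcl1 and the Bcl2a1 genes fill over 90% of the survival bar in every sample, and Bcl2, under 0.23 FPKM, is not drawn, while the ratios run from 2.80 to 3.26.

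For Mcl1, the member with both the highest level and the largest difference, the 3 genes with the most similar profile over the 6 samples were Dedd2, E130112N10Rik and Zmat1. Their root mean square difference from Mcl1, after centring on the log2 scale, was 0.05 each. They were picked as the smallest, so values below the median of 0.23 over all genes followed from the choice. A shared function was not tested. Dedd2, which encodes a death effector domain protein, was at 17.0, 10.7 and 12.8 FPKM in CD44+/+ AMs and at 17.6, 14.1 and 17.0 FPKM in CD44-/- AMs. As for Mcl1, the other CD44+/+ samples lay below all CD44-/- samples and CD44+/+ replicate 1 did not.

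The other 76 genes of the pathway were in lists taken around the family, chosen with earlier results of these data known. They held 0 genes with an adjusted p under 0.05 among the 69 tested. In CD44-/- AMs 35 were higher and 34 lower, with a median of 0.00. Without adjustment 10 had a p under 0.05, 6 higher and 4 lower (14.5%, against 7.69% of all genes), a count that was 5 without CD44+/+ replicate 2 or without CD44+/+ replicate 3, 6 without CD44-/- replicate 3 and 13 without CD44+/+ replicate 1. With all 6 samples, 13 of the 69 genes had no overlap between the genotypes (18.8%, against 11.6%).

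Among the other genes of the family, 7 of 10 were tested, 6 of them lower and 1 higher in CD44-/- AMs, none with an unadjusted p under 0.05. Pmaip1, which encodes Noxa, the BH3-only partner of Mcl1, was at 5.48, 5.98 and 6.40 FPKM in CD44+/+ and at 5.08, 5.23 and 5.56 FPKM in CD44-/- AMs, a log2 difference of -0.17 (adjusted p = 0.765). Bcl2a1a was at 85.2, 85.6 and 93.9 and at 87.8, 78.9 and 76.2 FPKM, a log2 difference of -0.13 (adjusted p = 0.764). Bad, a BH3-only gene held in check by survival signalling, was between 29.8 and 37.5 FPKM in all samples (-0.02), and Bmf (-0.06), Bok, the third effector (-0.09), and Bcl2l2, which encodes Bcl-w (-0.03), were also near 0. Bcl2a1c, at 0.176 to 0.999 FPKM, had a difference of 0.17 that rested on very low values. Bcl2l10 was listed at 0 in every sample, and Bik and Hrk were below the limit of 0.5 FPKM.

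Of 7 Bcl2-related genes tested, 1 had an unadjusted p under 0.05. Bnip1, an endoplasmic reticulum protein with a BH3-like stretch, was at 13.2, 14.0 and 12.9 FPKM in CD44+/+ and at 15.2, 16.3 and 16.7 FPKM in CD44-/- AMs. All CD44-/- samples were above all CD44+/+ samples (0.26, adjusted p = 0.325). Bnip3 (-0.12) and Bnip3l (-0.08), genes of mitophagy, did not separate.

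Downstream of the pore, 8 of 12 genes of the apoptosome and executioner caspases were higher in CD44-/- AMs, and 2 of the 12 had an unadjusted p under 0.05. Casp6 was at 14.1, 12.8 and 11.8 FPKM in CD44+/+ and at 16.5, 14.7 and 14.4 FPKM in CD44-/- AMs (0.24, adjusted p = 0.538). Cycs, cytochrome c, differed by 0.14 and Endog, a mitochondrial nuclease, by 0.14, both with overlap.

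The inhibitors of apoptosis and the p53 list held the lowest adjusted p-values of the pathway. Birc5, which encodes survivin and is also a gene of dividing cells, was at 21.4, 21.2 and 20.8 FPKM in CD44+/+ and at 26.1, 28.4 and 31.3 FPKM in CD44-/- AMs. The genotypes were clearly separated, with a log2 difference of 0.43 (95% interval 0.27 to 0.60), but the adjusted p was 0.114. Cdkn1a, which encodes p21, an inhibitor of the cell cycle, was at 75.6, 64.9 and 69.6 and at 90.1, 88.1 and 88.8 FPKM, a log2 difference of 0.35 (95% interval 0.21 to 0.49, adjusted p = 0.126). Birc5 passed without CD44-/- replicate 1 (adjusted p = 0.0481) and Cdkn1a without CD44+/+ replicate 1 (adjusted p = 0.0357), and neither passed in any other setting. Of the 9 p53 genes, 7 were higher in CD44-/- AMs with a median of 0.11, among them Zmat3 (0.21) and Sesn1 (0.15), both with overlap. Perp, the most abundant of them, differed by 0.02. Naip2, a sensor of bacterial proteins, was at 54.9, 54.3 and 54.8 and at 50.1, 49.7 and 49.8 FPKM (-0.13, adjusted p = 0.492), and Naip1 differed by 0.15 with overlap.

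Of 11 death receptor genes tested, 5 were higher and 6 lower. Mlkl, which carries out necroptosis, was at 4.46, 5.79 and 6.15 FPKM in CD44+/+ and at 7.0, 6.53 and 7.55 FPKM in CD44-/- AMs (0.37, adjusted p = 0.504), while its activator Ripk3 differed by -0.13. With 1 sample left out, the difference of Mlkl was 0.23 to 0.46, lowest without CD44+/+ replicate 1. Tnfrsf1b, a receptor for TNF and the most abundant gene of this list, differed by 0.00, and Tnfsf10, which encodes TRAIL, by 0.17. Among genes of the outer membrane, Vdac2, which encodes a channel that holds Bak1, was at 189, 187 and 192 FPKM in CD44+/+ and at 178, 176 and 175 FPKM in CD44-/- AMs (-0.10, adjusted p = 0.616). Vdac1 differed by -0.07 and Bag1, a partner of Bcl2, by 0.11. Of the 7 genes listed for the turnover, transcription or binding of Mcl1 and Bim, none had an unadjusted p under 0.05. Foxo1 and Dynll2 had no overlap between the genotypes (28.6% of the list, against 11.6% of all genes tested). Foxo3 (0.16) and Foxo1 (0.18), which encode factors that drive transcription of Bim, and the dynein light chains Dynll1 (-0.04) and Dynll2 (0.09), which hold Bim and Bmf, lay between the 5th and the 95th percentile of all genes tested (-0.20 to 0.29).

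**Figure D5:**
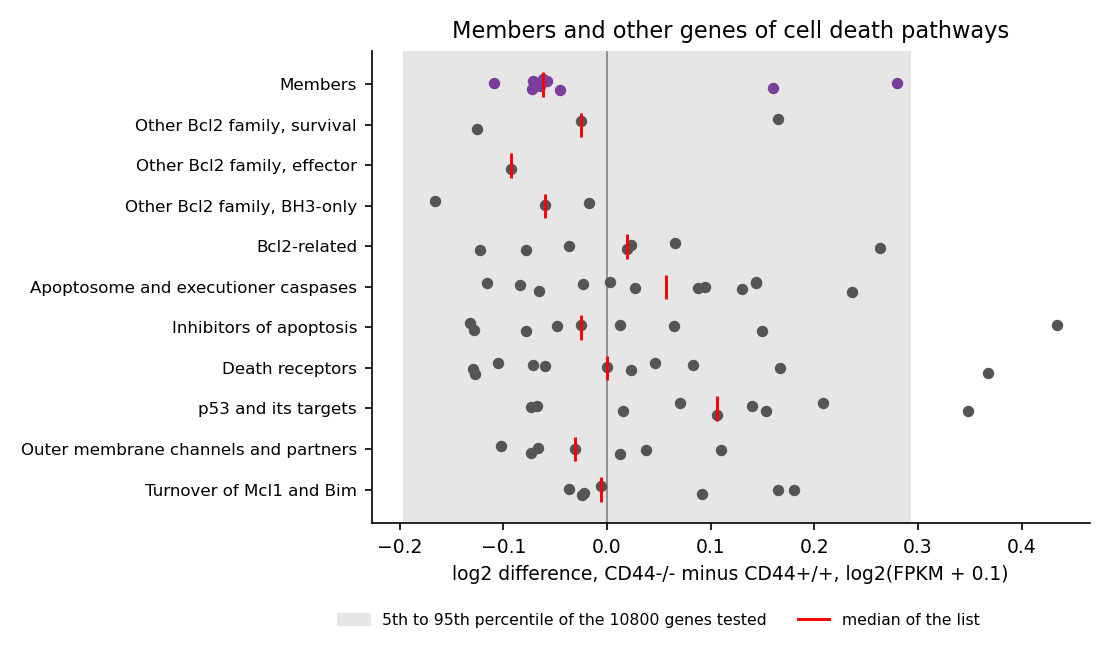
Log2 difference of FPKM, CD44-/- minus CD44+/+, of each tested gene (points) in the family and in each pathway list, with the list's median in red and the 5th to 95th percentile of all 10800 genes tested (-0.20 to 0.29) shaded. The points lie on both sides of 0 in most lists, and the farthest from 0 are Birc5 at 0.43 and Mlkl at 0.37.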

How the data were processed

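RNA of AMs from 3 pools of CD44+/+ and 3 pools of CD44-/- mice was sequenced, and groups were taken from the labels. The submitters' processing notes name STAR, Cufflinks, Cuffdiff and mm10. The authors deposited FPKM values per gene and sample, normalized for depth and transcript length. The table also holds the authors' own Cuffdiff comparison (fold changes, p-values and q-values), which was not used. Its columns of gene names and positions are in another order than the identifiers and FPKM values (the 2 name columns match in 0 genes), so values were read by identifier. Identifiers holding more than 1 name (101) were kept as single genes, and Rapgef6, which lacked 1 value, was left out.

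Genes whose mean reached 0.5 FPKM were compared on log2(FPKM + 0.1) in R 4.3.3 with limma 3.58.1 (lmFit, eBayes with a trend, two-sided, Benjamini-Hochberg adjusted p under 0.05). The procedure was tested on simulated data. Single genes were also given an exact permutation test. Genes named were all members, and of each pathway list the 3 with the largest difference and the most abundant, plus any with an adjusted p under 0.05, Cd44, and the 3 genes most like the leading member. Of the genes this rule names, 1 is not reported here. Those mentioned only for a place below the limit or at 0 were added after their values were seen. The members and lists were chosen with earlier results of these data known. Positions and sequences are from GENCODE vM21 (GRCm38). The replicate numbers were taken to pair the samples, since deviations of same-numbered samples from their group means correlated at 0.212, 0.132 and 0.211. The study's methods list pools of unequal numbers of mice in an order but name no replicate numbers, so pool size was not used. Alternatives were other pseudocounts (1 and 0.01), limits (1 FPKM or none), scaling by median ratios or quantiles, eBayes without a trend or robust, the replicate block, the summed Bcl2a1 genes, and leaving out each sample.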

Additional observations from a re-analysis of the deposited data

How the results depend on the processing

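No member passed an adjusted p of 0.05 in limma under any of 16 alternatives, 10 with all samples and 6 that left out 1. With the replicate block, which takes samples of the same number as pairs though no label does, members called numbered 0. All genes called then numbered 9 instead of 12, and no call among members or pathway genes changed. Without a limit on low values 7 genes were called. Leaving out 1 sample gave 6 to 36 genes called, 36 without CD44+/+ replicate 1, 22 without CD44-/- replicate 1, 7 without CD44+/+ replicate 2 and 6 without CD44-/- replicate 2, and 0 to 1 pathway genes called. The split of calls, 8 higher and 4 lower, was 6 and 5 under quantile normalization, 4 and 4 without a trend, 3 and 4 both without a limit and without CD44+/+ replicate 2, and 2 and 4 without CD44-/- replicate 2. Members with an unadjusted p under 0.05 numbered 4 without CD44+/+ replicate 1 (Mcl1, Bcl2a1b, Bid and Bbc3), and 1, Mcl1, both with the block and without CD44-/- replicate 2. Without 1 sample, the log2 difference was 0.17 to 0.44 for Mcl1, 0.063 to 0.33 for Bbc3, -0.19 to -0.056 for Bcl2a1b, -0.094 to -0.043 for Bcl2a1d, -0.12 to -0.027 for Bax and -0.11 to -0.0033 for Bcl2l1, and the sign turned for Bak1 (-0.12 to 0.032), Bid (-0.21 to 0.020) and Bcl2l11 (-0.081 to 0.015). It also turned for Bad (-0.082 to 0.082), Bcl2a1c (-0.29 to 0.59), Bcl2l2 (-0.10 to 0.071), Bmf (-0.12 to 0.042), Bok (-0.31 to 0.090), Dynll1 (-0.068 to 0.014), Naip1 (-0.085 to 0.37), Perp (-0.11 to 0.14), Tnfrsf1b (-0.071 to 0.051) and Tnfsf10 (-0.025 to 0.27). Of other genes named with overlap, Cycs ranged from 0.035 to 0.24, Endog from 0.045 to 0.30, Sesn1 from 0.024 to 0.28 and Zmat3 from 0.11 to 0.29. Bag1 ranged from 0.061 to 0.18 and Foxo3 from 0.11 to 0.25. Bnip3 ranged from -0.19 to -0.025, Bnip3l from -0.12 to -0.038 and Pmaip1 from -0.22 to -0.11. Bcl2a1a ranged from -0.18 to -0.079 and Vdac1 from -0.10 to -0.049. Median-ratio scaling gave Perp -0.0012. The causes of these turns were not tested. FPKM carry no depth, so what a low gene such as Bcl2 could have shown is not known.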
